A study of Mus musculus with 60 samples.

Results

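The genes described here are the 8 transcriptional repressors of the mammalian circadian clock, Per1, Per2, Per3, Cry1, Cry2, Ciart, Bhlhe40 and Bhlhe41, followed in mouse liver after a sham operation or partial hepatectomy (PHx, an operation that removes liver lobes and sets off regrowth). They were taken by gene symbol, and all 8 are among the 14620 genes of the time course tables and in each of the 4 tables that set morning against night operations. The mice were 8-week-old males of strain C57BL/6, with no mutant allele or drug given in the labels, and each of the 20 groups holds 3 livers from separate mice. Morning operations took place between 8 and 9 am and night operations between 8 and 9 pm. The 8 morning sham and 8 morning PHx groups cover 4 to 32 h after the operation in steps of 4 h, and night sham and night PHx groups at 4 and 24 h. The lighting schedule is not given in the sources used here, and no unoperated group was analysed here, so every level below is that of an operated animal.

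The clock of a liver cell is a loop of transcription and feedback. The activators BMAL1 (gene Arntl) and CLOCK or NPAS2 bind E-box sequences and switch on the Per and Cry genes, whose proteins return to the nucleus as PER and CRY complexes and silence the activators. CRY1 and CRY2 are the strong repressors of that complex, PER proteins carry them to their targets, CIART (also called CHRONO) binds BMAL1 and represses it through a separate route, and BHLHE40 and BHLHE41 (DEC1 and DEC2) compete with the activators for E-boxes. A second loop of REV-ERB and ROR nuclear receptors times Arntl and delays Cry1, and the D-box factors DBP, TEF, HLF and NFIL3 add a further layer that acts on the Per genes. Per1 and Per2 also answer directly to glucocorticoids and cAMP signalling, and Bhlhe40 to hypoxia and growth signals, so these repressors can move without the loop that normally times them.

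The DNA in front of these genes carries those binding letters. RefSeq promoter windows (build GRCm38.p6) were available for 6 of the 8 genes, in 7 windows since Per1 has a pair of start sites. The motifs searched, on both strands of the 250 bases before each start, were the E-box CACGTG, the related E-box CACGTT, the D-boxes TTATGTAA and TTACGTAA, the REV-ERB and ROR site AGGTCA, the cAMP response element TGACGTCA and the glucocorticoid receptor pair ACANNNTGT. None of these motifs overlaps another in the windows below. The 4 windows with 2 or more motifs are shown, in the direction of the gene, with every motif in capitals.
Per1, upstream start: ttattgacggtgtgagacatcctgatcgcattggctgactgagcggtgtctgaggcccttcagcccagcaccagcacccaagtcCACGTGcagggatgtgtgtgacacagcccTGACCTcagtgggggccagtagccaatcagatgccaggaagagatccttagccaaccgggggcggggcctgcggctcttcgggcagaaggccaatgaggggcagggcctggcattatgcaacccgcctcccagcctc
Per3: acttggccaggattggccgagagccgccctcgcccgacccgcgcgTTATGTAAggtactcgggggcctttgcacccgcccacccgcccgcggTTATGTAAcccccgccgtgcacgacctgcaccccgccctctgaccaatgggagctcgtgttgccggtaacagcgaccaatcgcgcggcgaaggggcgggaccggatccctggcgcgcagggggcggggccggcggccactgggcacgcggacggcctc
Cry1: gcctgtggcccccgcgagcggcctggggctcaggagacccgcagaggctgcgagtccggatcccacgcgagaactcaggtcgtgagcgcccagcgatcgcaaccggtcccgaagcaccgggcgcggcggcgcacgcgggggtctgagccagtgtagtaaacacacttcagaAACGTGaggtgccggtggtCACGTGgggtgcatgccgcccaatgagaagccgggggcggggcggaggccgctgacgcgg
Ciart: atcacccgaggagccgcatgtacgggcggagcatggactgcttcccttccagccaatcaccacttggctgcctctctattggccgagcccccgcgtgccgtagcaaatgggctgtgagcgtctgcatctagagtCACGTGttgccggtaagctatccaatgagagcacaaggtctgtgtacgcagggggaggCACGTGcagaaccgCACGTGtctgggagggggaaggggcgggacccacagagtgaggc
The Ciart window (chr3:95882229-95882478, minus strand) holds 3 copies of CACGTG, a number found in 0.0609% of the 32851 promoter windows of the same length, against 6.02% with at least 1. The Per3 window (chr4:151044666-151044915, minus strand) has no E-box of either spelling and 2 copies of TTATGTAA, which 0.0183% of windows match with 2 or more and 0.819% with 1 or more. The Cry1 window (chr10:85185055-85185304, minus strand) pairs a CACGTG with the related box read as AACGTG, the form found in 3.85% of windows. The upstream Per1 window (chr11:69098699-69098948, plus strand) has 1 CACGTG and 1 REV-ERB and ROR site read as TGACCT, a motif that 14% of windows contain. The Bhlhe41 window has 1 CACGTG, the Cry2 window 1 AACGTG, and the second Per1 window none of the letters searched. TTACGTAA (0.113% of windows), TGACGTCA (1.55%) and ACANNNTGT (5.84%) were in none of the 7 windows, which says only that those letters are not in these 250 bases.

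Levels in the time course are log2(value + 1) of an expression value as deposited, and differences are log2 differences on that scale, which understates changes of weakly expressed genes. A gene was tested in a comparison if at least 3 of its libraries reached a value of 1, which 7 of the 8 repressors did. Bhlhe41 stayed below that limit. The verbs rose and fell, and the word called, are kept for a Benjamini-Hochberg adjusted p under 0.05 over all genes tested (12957 in the time course), and values with ± are estimates with their standard error unless SD is named. Where groups are said not to overlap or to lie apart, the share of all genes doing so was not counted, so this describes single genes only. The libraries do not all stand alike. The sham 4 h library numbered 1 lists 3422 genes at 0, against 768 to 1414 in the other 47, and 156 of those genes are at 1 or more in every other library. Its profile was nearest to that of the night sham 4 h library numbered 3 (Pearson r across genes 0.883) rather than to its own label (0.871), and the sham 4 h library numbered 3 was nearest to morning library 1 of the 4 h sham table (0.935 against 0.916). The other 10 libraries present in both kinds of table matched their own label best. In the sham 8 h library numbered 3, markers of neutrophils, the white cells that enter injured tissue, summed to 52.49 against 0.53 and 1.51 in its replicates, and 1 PHx 4 h library held pancreatic acinar markers at 5811 against 24.53 in the lowest of its group. Hepatocyte markers summed to 44067 or more in every 4 h library, and in whole liver fewer cells of a type and less RNA per cell cannot be told apart. The 3 neutrophil markers in the table summed to more in every PHx library than in every sham library at 4 h (28.26 to 54.58 against 0 to 7.44), 20 h (7.87 to 33.90 against 0.97 to 1.63), 24 h (10.66 to 17.81 against 0.22 to 4.19) and 28 h (4.10 to 33.05 against 0.17 to 2.48). Kupffer cell markers, of the resident macrophages, summed to 172 to 219 after PHx and to 230 to 1172 in sham at 4 h. The part of these cells in the differences below was not tested. By library ID, sham 4 h, PHx 4 h with all 24 h libraries, 8 to 20 h, and 28 with 32 h form separate series.

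In sham livers the Per genes ran from low in the morning to high late in the evening and at night. Per2, the PER protein most needed for a stable rhythm, was at 1.44, 1.54 and 2.51 at 8 h, at 2.65, 2.70 and 2.51 at 12 h and at 2.90, 2.99 and 2.83 at 16 h. It was at 1.76, 1.44 and 1.15 at 24 h. The 16 h libraries all lay above the 12 h libraries, and the 24 h libraries all below those of 12 to 20 h. Per3, whose loss leaves most clocks running, stood at 2.33, 2.48 and 2.47 at 12 h, its highest group, and at 0.39, 0.36 and 0.71 at 24 h. Per1, the fast-responding member, stood at 2.20, 2.27 and 2.29 at 12 h and again at 1.98, 2.32 and 2.47 at 20 h, with 1.87, 1.86 and 1.37 between them at 16 h. The 12 and 20 h groups overlapped each other and neither overlapped 16 h. Per1 was low in the sham 4 h libraries (0.37 and 0.75 in libraries 2 and 3, listed at 0 in library 1).

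The Cry genes split. Cry1, the delayed arm of the loop, had its highest mean at 24 h, in the morning, at 3.67, 4.00 and 3.46. That group overlapped the 16 h group (3.37, 3.66 and 3.36). The lowest Cry1 means were at 12 h (2.40, 1.82 and 1.71) and 32 h (1.83, 1.92 and 1.68), where the Per genes were near their peaks. Cry2 moved least of the 8, with a span of 0.84 between 3.01, 2.90 and 3.16 at 12 h and 2.04, 2.07 and 2.44 at 24 h. Those 12 and 24 h groups still did not overlap. Over the 24 sham libraries, the 6 pairs that set Cry1 beside a tested repressor and the pair with Bhlhe41 gave Pearson r from -0.69 to -0.06, while the 15 pairs among Per1, Per2, Per3, Cry2, Ciart and Bhlhe40 ran from 0.60 to 0.91. These libraries share their operation and times, so the correlations describe the profiles only.

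Ciart had the widest swing. It stood at 4.48, 4.67 and 4.64 at 12 h, at 3.49, 3.36 and 2.35 at 16 h, at 0.63, 0.26 and 0.00 at 24 h, and at 4.22, 3.92 and 3.56 at 32 h, for a span of 4.29 between its highest and lowest group means. The 12 h libraries lay above all others. Bhlhe40 was the most abundant of the 8 transcripts in each library of the length-corrected 4 h sham table, at 18.45 to 93.69 TPM (transcripts-per-million units). In the sham time course it was at 5.54, 6.22 and 5.96 at 16 h and at 4.24, 3.62 and 4.50 at 24 h, with no overlap between those groups. Bhlhe41 was weak throughout, at 0.68, 0.92 and 0.39 at 12 h and 0.01, 0.21 and 0.20 at 24 h, and reached 1.34, 0.92 and 1.11 at 32 h, its highest sham group.

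**Figure D1:**
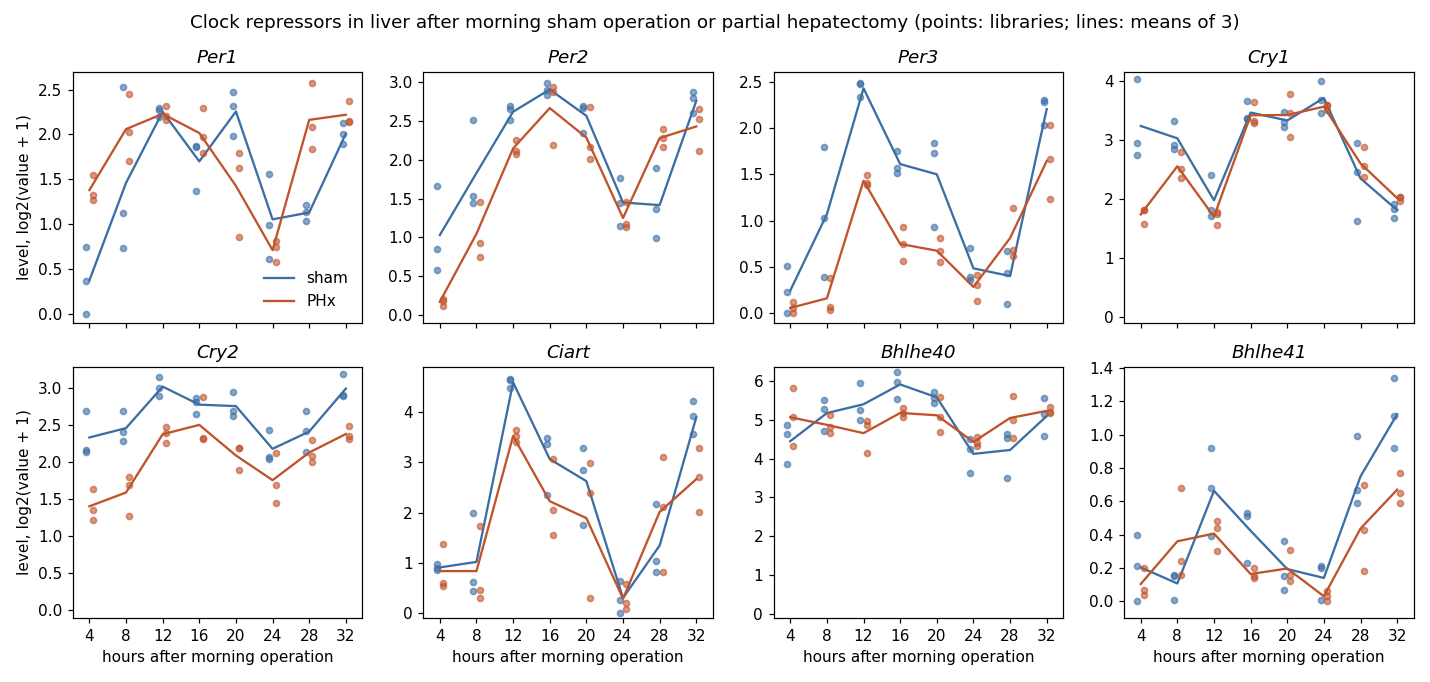
Level of each repressor, as log2(value + 1), against hours after a morning operation in sham (blue) and PHx (orange) livers, with points for single libraries and lines through the means of 3. Sham Ciart swings by 4.29 between its lowest and highest group means and Cry2 by 0.84. The highest sham Cry1 mean is at 24 h, where the Per genes are low.

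A 24 h cosine curve summarised these profiles. In sham, all 7 tested repressors were called rhythmic by limma, where 28% of the 12005 genes tested were. Fitted peaks of 6 of them lay within a narrow window of the late evening, from 13.26 ± 0.78 h after the operation for Cry2 to 14.65 ± 0.60 h for Bhlhe40. Cry1 peaked at 21.53 ± 0.86 h. Fitted amplitudes, from mean to peak, ranked Ciart first at 1.79 ± 0.29 (adjusted p = 0.00051), then Per3 at 1.01 ± 0.15, Per2 at 0.88 ± 0.13, Bhlhe40 at 0.83 ± 0.13, Cry1 at 0.73 ± 0.17 (adjusted p = 0.0083) and Per1 at 0.69 ± 0.16, and Cry2 last at 0.36 ± 0.08. All 7 calls stayed whichever 1 library was left out. With the library ID series as a term, which removes the shifts between series along with part of the time course, the calls for Per2, Per3 and Ciart stayed and those for Per1, Cry1, Cry2 and Bhlhe40 did not (adjusted p = 0.45, 0.13, 0.098 and 0.22).

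The first comparison sets PHx against sham at each time. At 4 h, 1 of 7 tested repressors rose and 3 fell, where 9.32% of all genes tested rose and 37.6% fell. Per1 stood at 1.55, 1.32 and 1.27 after PHx, above every sham library, and rose by 1.01 ± 0.29 (adjusted p = 0.0044). Per2 was close to 0 after PHx, at 0.21, 0.12 and 0.18, against 0.58, 0.85 and 1.66 in sham. Cry1 stood at 1.82, 1.81 and 1.58 against 2.94, 2.74 and 4.03, and Cry2 at 1.22, 1.64 and 1.36 against 2.14, 2.17 and 2.70. For these 3 genes every PHx library lay below every sham library, and they fell by 0.86 ± 0.26, 1.5 ± 0.25 and 0.93 ± 0.18 (adjusted p = 0.0058, 8.7e-06 and 7.6e-05). After TMM scaling, a method that centres the bulk of genes between libraries, they were still called, at -0.77, -1.13 and -0.59. Per1 and Per2 thus differed from sham in opposite directions in the same livers. Sham 4 h and PHx 4 h libraries carry IDs of different series, so operation and series cannot be told apart at this time. Sham 4 h libraries 1 and 3 also did not match their own label best. The Per2 call was lost without the sham 4 h library numbered 3, at -0.54 with an adjusted p of 0.091, and the other 3 stayed whichever library was left out. Bhlhe40 had 5.81, 5.06 and 4.32 after PHx against 3.85, 4.63 and 4.86, overlapping and not called as deposited (0.62 ± 0.34). After TMM scaling it was called at 1.10 (adjusted p = 0.0095). The median difference of all genes at 4 h was -0.32 as deposited and 0.02 after TMM.

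At 8 h, 3 of 7 fell and none rose, where 18.7% of all genes fell and 6.04% rose. Cry2 was at 1.28, 1.70 and 1.80 against 2.29, 2.41 and 2.69, without overlap, and fell by 0.87 ± 0.18 (adjusted p = 0.00041). Per2 was at 0.75, 0.93 and 1.46 against 1.44, 1.54 and 2.51 (-0.79 ± 0.26, adjusted p = 0.02), and Per3 at 0.07, 0.04 and 0.38 against 0.39, 1.03 and 1.79 (-0.91 ± 0.24, adjusted p = 0.0036). In both Per genes the sham library numbered 3, the one with neutrophil markers at 52.49, was the highest. Without it the Per2 and Per3 differences were -0.45 and -0.55 and neither was called (adjusted p = 0.26 and 0.092). Per2 was also lost without PHx library 1 or 2 (adjusted p = 0.11 and 0.072) and after TMM scaling (adjusted p = 0.057) and on the 8 h libraries alone (0.092).

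From 12 to 20 h the calls were for lower levels only, in Per3 and Cry2 above all. At 12 h, 2 of 7 fell and none rose, where 8.63% of all genes fell and 7.57% rose. Per3, at its sham peak, stood at 1.39, 1.49 and 1.41 after PHx against 2.33, 2.48 and 2.47 in sham, and fell by 1.0 ± 0.24 (adjusted p = 0.0026). Cry2 was at 2.26, 2.40 and 2.48 against 3.01, 2.90 and 3.16, and fell by 0.64 ± 0.18 (adjusted p = 0.013). Ciart, also at its peak, was at 3.65, 3.52 and 3.41 against 4.48, 4.67 and 4.64. The 2 groups are tight and do not overlap, but in the fit of all 48 libraries, whose shared spread is wide for Ciart, the difference of -1.07 ± 0.54 was not called (adjusted p = 0.19). Fitted on the 6 libraries of that time alone it was (adjusted p = 0.0014), as was Per2 (-0.48, adjusted p = 0.043).

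At 16 h, 1 of 7 fell, where 6.35% of all genes fell and 7.31% rose. It was Per3, with 0.93, 0.57 and 0.75 against 1.75, 1.51 and 1.57 (-0.86 ± 0.24, adjusted p = 0.01), a call lost with a pseudocount of 0.1 (adjusted p = 0.069). At 20 h, 3 of 7 fell, where 5.87% of all genes fell and 12.5% rose. Per3 was at 0.67, 0.81 and 0.55 against 1.73, 0.93 and 1.84 (-0.83 ± 0.24, adjusted p = 0.012), and Cry2 at 2.19, 2.19 and 1.90 against 2.70, 2.63 and 2.95 (-0.67 ± 0.18, adjusted p = 0.0089). Per1 was at 1.63, 0.86 and 1.79 against 1.98, 2.32 and 2.47 (-0.83 ± 0.29, adjusted p = 0.042). These ranges do not overlap, yet the calls are narrow. The PHx 20 h library numbered 2 was low in Per1 and also in Ciart, which it had at 0.30 beside 2.98 and 2.39, and without it Per1 stood at -0.54 (adjusted p = 0.25). Per1 was also lost without PHx library 1 or sham library 2 or 3 (adjusted p = 0.052, 0.099 and 0.15), Per3 at 20 h without PHx library 3 or sham library 1 or 3 (0.055, 0.069 and 0.096), Cry2 at 20 h without library 3 of either group (0.063 and 0.061), Per3 at 16 h without PHx library 2 or sham library 1 (0.063 and 0.051), and Cry2 at 12 h without PHx library 1 or sham library 3 (0.063 and 0.058). Per3 at 12 h stayed whichever library was left out. With a pseudocount of 0.1, Per3 was not called at 12 or 20 h (adjusted p = 0.1 and 0.066), nor Per1 at 20 h (0.11), and on the 20 h libraries alone Per1 was not called (0.087).

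At 24 h, a full day after the operation and back in the morning, no repressor was called by limma. Of all genes, 9.19% rose and 3.11% fell. At an unadjusted p under 0.05 were 1 of 7, and 3342 of all 12957 genes. On the 24 h counts edgeR called Per3 alone, at -1.48 with an adjusted p of 0.025. That alternative was chosen after the data had been seen. DESeq2 was not run on this comparison.

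At 28 h the sign turned for the Per genes. Per1 and Per2 rose, 2 of 7, and none fell, where 14.9% of all genes rose and 5.59% fell. Per1 was at 2.08, 2.57 and 1.84 after PHx against 1.21, 1.14 and 1.04 (1.03 ± 0.29, adjusted p = 0.0097). Per2 was at 2.16, 2.40 and 2.28 against 1.36, 1.90 and 0.99 (0.86 ± 0.26, adjusted p = 0.014). Every PHx library was above every sham library in both genes, so at 28 h Per1 again stood above sham as it had at 4 h, and Per2, which had been below, stood above. Without the PHx 28 h library numbered 2 neither was called (0.83, adjusted p = 0.072, and 0.81, adjusted p = 0.0503), and Per2 was also lost without sham library 3 (0.65, adjusted p = 0.11) and on the 28 h libraries alone (adjusted p = 0.083). At 32 h Cry2 fell, 1 of 7, with 2.35, 2.49 and 2.31 against 2.89, 3.19 and 2.91 (-0.62 ± 0.18, adjusted p = 0.018), where 3.6% of all genes fell and 11.8% rose. It was lost without PHx library 1 or 3 or sham library 2 (adjusted p = 0.064, 0.062 and 0.094). Ciart was at 3.29, 2.70 and 2.01 against 4.22, 3.92 and 3.56, without overlap and not called in the fit of all libraries (-1.23 ± 0.54, adjusted p = 0.12). Bhlhe41, not tested, lay below sham as well. Per1 (2.14, 2.37 and 2.15 against 2.13, 1.89 and 2.01) and Cry1 (2.04, 2.03 and 1.97 against 1.83, 1.92 and 1.68) lay above sham, also without overlap and not called.

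**Figure D2:**
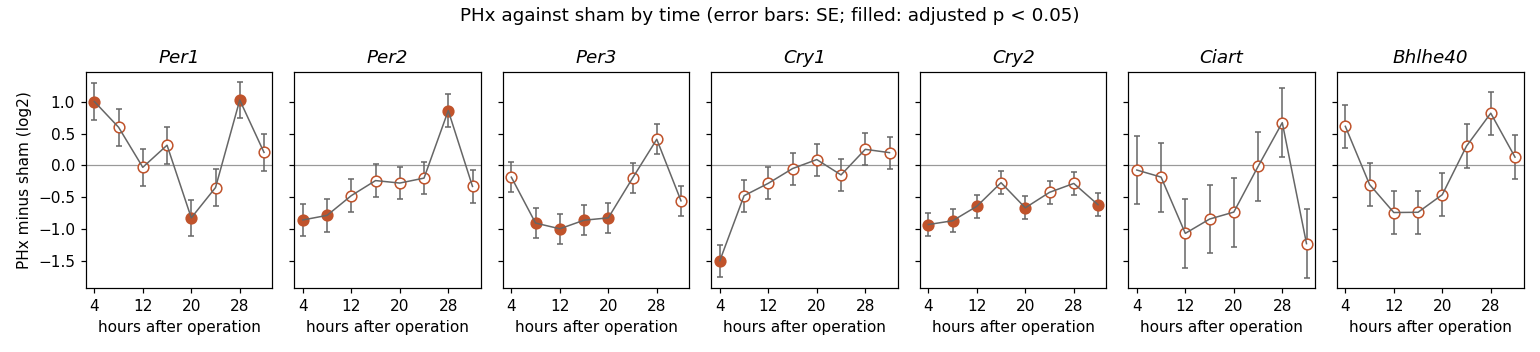
Difference of PHx from sham in log2(value + 1) for the 7 tested repressors against hours after the morning operation, with standard errors and filled points where the adjusted p is under 0.05. Per1 lies above 0 at 4 and 28 h and below at 20 h, Per3 lies below 0 at the 4 times from 8 to 20 h at -0.83 to -1.0, and Cry2 lies below 0 at all 8 times.

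The second comparison asks whether the daily rhythm itself differed. After PHx, limma called 3 of 7 repressors rhythmic, Per1, Cry1 and Ciart, where 8.28% of the 12315 genes tested were. At an unadjusted p under 0.05 were 6 of 7, and 2985 of the 12315 genes. Cry1 kept an amplitude of 0.84 ± 0.14 (adjusted p = 0.002) and a peak at 20.46 ± 0.65 h. Per1 had an amplitude of 0.65 ± 0.12 (adjusted p = 0.004) and an early peak at 10.97 ± 0.65 h, against 14.54 ± 0.86 h in sham. Ciart had 1.10 ± 0.29 (adjusted p = 0.045), a call lost on leaving out any of 16 single libraries (adjusted p up to 0.099), without a filter (0.054) and without the 4 h libraries (0.072). Per2 (0.71 ± 0.20, adjusted p = 0.062), Cry2 (0.38 ± 0.11, adjusted p = 0.057) and Per3 (0.47 ± 0.15, adjusted p = 0.1) were short of the threshold, and Per2 and Cry2 passed it after TMM scaling (adjusted p = 0.025 and 0.017). With the library ID series as a term, 5 repressors were called after PHx, namely Per1, Per2, Per3, Cry1 and Cry2. The share of all genes called in that setting is not given here, so nothing is read from 5 beside 3. Bhlhe40 stood apart, with an amplitude of 0.07 ± 0.14 after PHx (adjusted p = 0.93). Its 8 PHx group means spanned 0.80, against 1.79 in sham.

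The difference of the rhythm between operations was tested directly, with both coefficients of the curve. None of the 7 repressors was called by limma, where 0.147% of the 12957 genes were. At an unadjusted p under 0.05 were 3 of 7, and 1338 of the 12957 genes. The amplitude of Bhlhe40 differed by -0.76 ± 0.19 (PHx minus sham), at an adjusted p of 0.1, and with the library ID series as a term the adjusted p was 0.04 (-0.65). The amplitude of Per3 differed by -0.54 ± 0.22 (adjusted p = 0.43). The fitted Per1 peak differed by -3.57 ± 1.11 h and its amplitude by -0.05 ± 0.20, less than the standard error (adjusted p = 0.32). Cry1 (0.11 ± 0.22) and Cry2 (0.02 ± 0.13) had amplitude differences smaller than their standard errors. A loss of rhythm after PHx was thus not shown for any single repressor by the test of the difference.

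**Figure D3:**
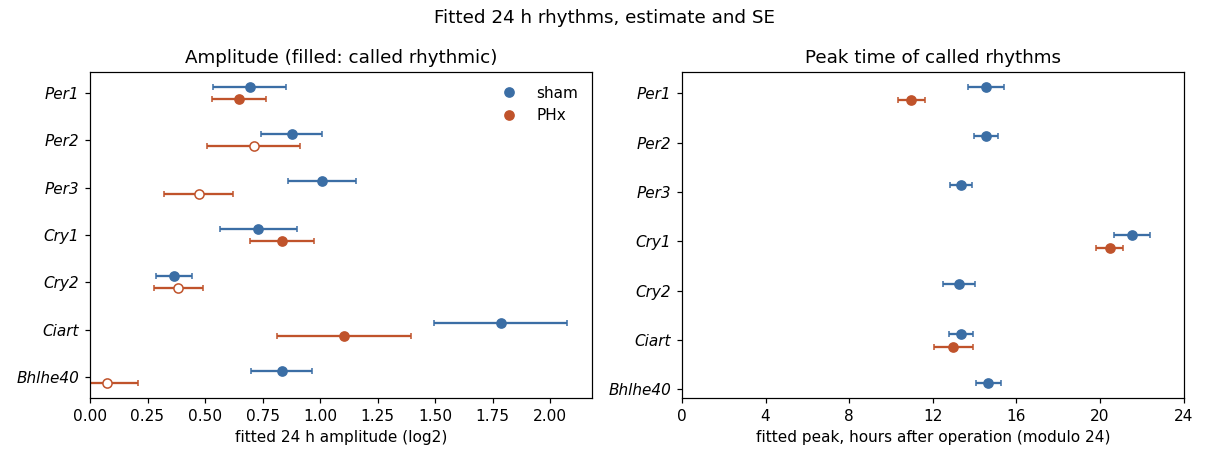
Fitted 24 h amplitude in log2 (left, filled where called rhythmic) and fitted peak in hours after the operation for the called rhythms (right), each with its standard error, in sham (blue) and after PHx (orange). Bhlhe40 has an amplitude of 0.83 in sham and 0.07 after PHx, and the Per1 peak lies at 14.54 h in sham and 10.97 h after PHx.

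The times 28 and 32 h fall at the same clock hours as 4 and 8 h on the day before, and their comparison asks whether the level returned to where it had been. After PHx, 5 of 7 repressors were higher at 28 than at 4 h and none lower, where 46.4% of all genes were higher and 9.51% lower, a share that includes the shift of 0.45 in the median of all genes. Per2 rose most, from 0.21, 0.12 and 0.18 to 2.16, 2.40 and 2.28 (2.11 ± 0.26, adjusted p = 1.6e-08). Once TMM had removed the common shift, Per1, Cry1 and Cry2 were no longer called (0.36, 0.39 and 0.30, adjusted p = 0.33, 0.19 and 0.21), and Per2 and Per3 remained. In sham, 1 of 7 fell between the same hours, where 11.2% of all genes fell and 9.22% rose. That was Cry1 (-0.89 ± 0.25, adjusted p = 0.01), which was not called without sham 4 h library 3 or sham 28 h library 1 (-0.49 and -0.53, adjusted p = 0.16 and 0.17). From 8 to 32 h, 4 of 7 rose and 1 fell in sham, where 5.14% of all genes rose and 8.46% fell, and 4 of 7 rose after PHx, where 31.6% rose and 7.49% fell. Ciart rose from 0.61, 0.44 and 2.00 to 4.22, 3.92 and 3.56 in sham (2.88 ± 0.54, adjusted p = 0.00027) and from 0.46, 0.30 and 1.74 to 3.29, 2.70 and 2.01 after PHx (1.83 ± 0.54, adjusted p = 0.0071). Sham Cry1 fell from 2.92, 2.84 and 3.32 to 1.83, 1.92 and 1.68 (-1.22 ± 0.25, adjusted p = 0.00085). Since 28 and 32 h libraries carry their own ID series, day and series cannot be told apart in these 4 comparisons.

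The third comparison sets morning against night operations. Livers taken 24 h after either were collected at opposite ends of the day, and their tables hold read counts, tested with edgeR, with 24.6 to 30.2 M reads per library. In sham livers all 8 repressors were called, 1 higher and 7 lower after morning than after night operation. Of all 12345 genes, 2.75% were higher and 2.61% lower. Ciart and Bhlhe41 passed the filter on reads only through the night group, where they are high, so their calls add nothing to that count. Ciart had 4, 0 and 0 reads in the morning libraries and 322, 230 and 392 in the night libraries, so its fitted difference (-7.93) depends on the prior count of the fit and only its direction and counts are read. Per3 was at 2.47 ± 1.28 CPM (counts-per-million units; SD, n = 3) in the morning and 22 ± 3.3 at night (-3.15 ± 0.33, adjusted p = 0.00027). Per1 was at 3.03 ± 0.713 and 17 ± 2.32 (SD, n = 3; -2.48 ± 0.23, adjusted p = 0.00015), and Per2 at 11.4 ± 2.35 and 24.9 ± 1.11 (SD, n = 3; -1.12 ± 0.19, adjusted p = 0.006). Cry2 was at 9.81, 13 and 13.6 CPM against 27.3, 27.2 and 26.7 (-1.16 ± 0.17, adjusted p = 0.0032). Cry1 ran the other way, at 32.2, 42.1 and 28.5 against 11.7, 12.4 and 9.04 (1.63 ± 0.20, adjusted p = 0.00086). Morning and night libraries did not overlap in any of these 6 genes, for which no share of all genes was counted.

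The same held for Bhlhe40, with 47.0, 33.3 and 58.1 CPM in the morning and 125, 96.0 and 127 at night (-1.33 ± 0.21, adjusted p = 0.0037), and for Bhlhe41, a gene near the detection floor that had 4, 18 and 9 reads against 129, 39 and 37 (-2.77 ± 0.67, adjusted p = 0.039). The equal replicate numbers of these libraries deviate together, and with the number as a block Bhlhe41 was not called (adjusted p = 0.059) and the other 7 were. Bhlhe41 was also lost on leaving out any library but night library 3 (adjusted p from 0.069 to 0.22), and Bhlhe40 without morning library 1 (adjusted p = 0.054). In the morning time course the 12 h group was also collected in the evening. Its 24 h libraries are the same samples as the morning libraries here, so it is no independent check. There the sham means at 24 h minus those at 12 h were -1.20 for Per1, -1.17 for Per2, -1.94 for Per3, 1.74 for Cry1, -0.84 for Cry2, -4.30 for Ciart and -1.28 for Bhlhe40. Nothing is read from their shared sign with the counts, since the 24 h samples are shared and no share of all genes was counted.

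After PHx, 24 h after the operation, 5 of 7 tested repressors were called, 1 higher and 4 lower after morning operation, where 0.253% of all 12658 genes were higher and 0.079% lower. Ciart had 2, 4 and 8 reads against 79, 155 and 110 (-4.46 ± 0.58, adjusted p = 0.012). It passed the filter on reads only through the night group, where it is high, so its call adds nothing to that count. Per3 had 28, 16 and 36 reads against 214, 227 and 143 (-2.72 ± 0.40, adjusted p = 0.021). Per1 was at 2.79 ± 0.688 and 9.97 ± 2.35 CPM (SD, n = 3; -1.84 ± 0.28, adjusted p = 0.024), Per2 at 9.01 ± 1.76 and 23.9 ± 5.63 (SD, n = 3; -1.40 ± 0.23, adjusted p = 0.032), and Cry1 at 32.1 ± 1.75 and 13.2 ± 3.84 (SD, n = 3; 1.28 ± 0.20, adjusted p = 0.029). The groups did not overlap in these 5 genes. Cry2 had 6.19, 12.3 and 8.88 against 11.4, 9.17 and 14 CPM, and Bhlhe40 64.0, 50.7 and 56.3 against 79.7, 45.9 and 36.3. Both overlapped and neither was called (-0.34 ± 0.27 and 0.08 ± 0.25, adjusted p = 0.75 and 0.95). The whole table had 32 genes called higher and 10 lower. Without morning library 1 or morning library 2 no repressor was called, without morning library 3 it was 1 and without night library 1 it was 2, at -4.11 and -4.30 for Ciart without morning library 1 and 2 (adjusted p = 0.053 and 0.097). DESeq2 called the same number, 5.

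**Figure D4:**
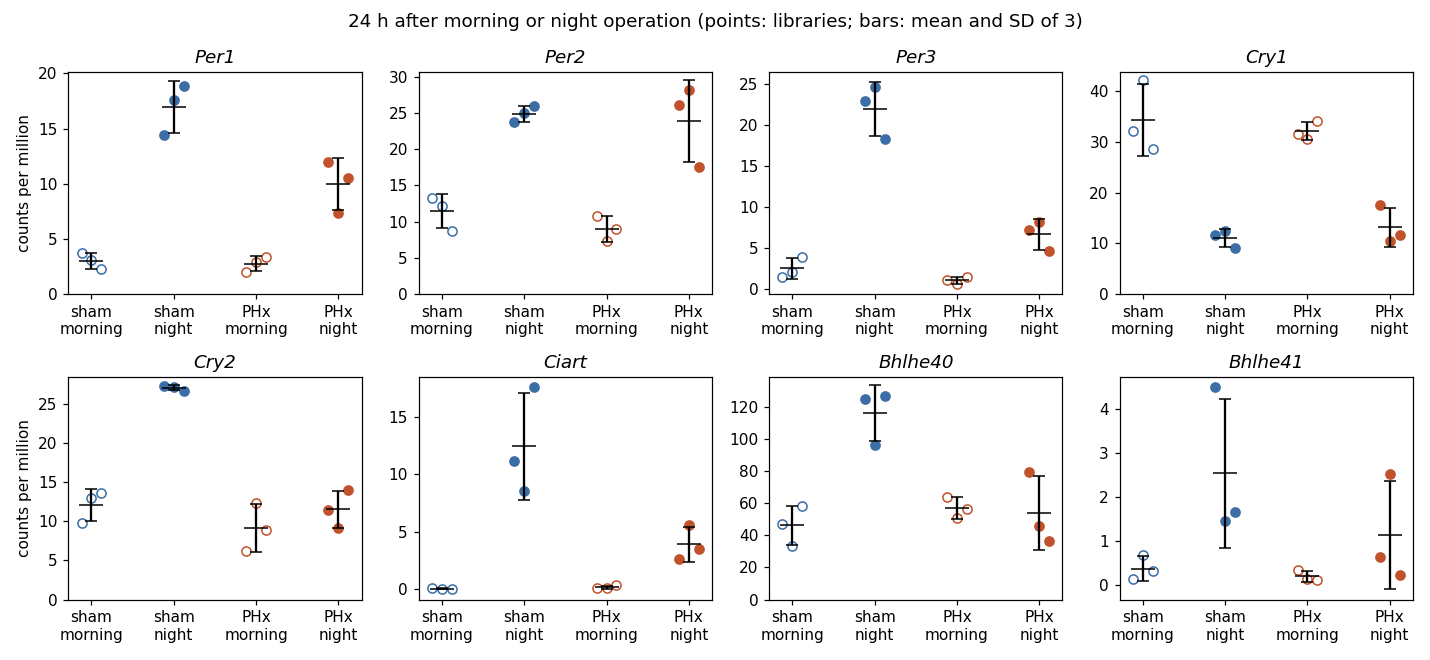
Level, in CPM, of the 8 repressors 24 h after sham (blue) or PHx (orange), with open points after morning and filled points after night operation, and bars for the mean and SD of 3 libraries. CPM were scaled within sham and within PHx separately, so heights are not on a common scale between the operations. Night sham libraries lie above morning sham libraries in 7 genes and below in Cry1, for which no share of all genes was counted. In sham, Ciart and Bhlhe41 passed the filter on reads only through the night group. After PHx, morning and night libraries overlap in Cry2, Bhlhe40 and Bhlhe41.

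PHx against sham after the night operation then compares both evenings at 24 h. Here 5 of 8 repressors fell and none rose, where 11.3% of all 12056 genes fell and 11.9% rose. Cry2 fell from 27.1 ± 0.321 to 11.5 ± 2.42 CPM (SD, n = 3; -1.42 ± 0.23, adjusted p = 0.00059). Per3 fell from 22 ± 3.3 to 6.64 ± 1.86 (SD, n = 3; -1.92 ± 0.35, adjusted p = 0.0012), and Ciart from 12.4 ± 4.66 to 3.92 ± 1.52 (SD, n = 3; -1.86 ± 0.44, adjusted p = 0.0073). Bhlhe40 fell from 116 ± 17.3 to 54 ± 22.8 (SD, n = 3; -1.30 ± 0.26, adjusted p = 0.0021), and Per1 from 17 ± 2.32 to 9.97 ± 2.35 (SD, n = 3; -0.96 ± 0.25, adjusted p = 0.011). Per2 (24.9 against 23.9 CPM) and Cry1 (11 against 13.2) were not called, with differences of -0.25 ± 0.21 and 0.06 ± 0.21. All 5 calls stayed whichever library was left out. Sham and PHx counts were deposited in separate tables, and they were joined here on the genes present in both. The CPM were scaled within sham and within PHx separately, while the differences come from the joined fit. Sham and PHx CPM are thus not on a common scale, and the comparison rests on the differences.

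Whether the PHx response differed between the operation times was tested as an interaction. It called 0 of 8 repressors with edgeR, where 0.207% of all genes were called higher and 0.282% lower. At an unadjusted p under 0.05 were 3 of 8, and 1240 of all 12056 genes. Bhlhe40 had the response furthest apart relative to its error, 1.43 ± 0.36 higher after morning than after night operation (adjusted p = 0.1), and Ciart had 3.51 ± 1.06 (adjusted p = 0.21) from 4, 0 and 0 reads in morning sham. DESeq2 called these 2 genes, at 1.43 (adjusted p = 0.011) and 3.60 (adjusted p = 0.021), and the share of all genes it called is not given here. Ciart passed the edgeR filter on reads only through the night groups, where it is high, so nothing is read from its values or its call here. Cry2 had 0.84 ± 0.33 (adjusted p = 0.37).

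At 4 h after PHx the collection times are about noon and about midnight. The deposited values of that table are read counts times a constant of each gene, so they were scaled by TMM and tested with limma, with 6 of 8 repressors above the filter. Of these 3 were called lower after morning operation and none higher, where 0.541% of all 8311 genes were lower and 0.397% higher. Per2 and Ciart passed the filter only through the night group, where they are high, so nothing is read from that count or from their limma calls. Per2 had 30, 19 and 20 reads against 383, 237 and 343 (-1.24 ± 0.13, adjusted p = 0.018). Cry1 had 170, 190 and 144 reads against 541, 581 and 783 (-1.29 ± 0.16, adjusted p = 0.022), and Ciart 30, 12 and 10 against 194, 108 and 101 (-1.10 ± 0.18, adjusted p = 0.042). Morning and night libraries were fully apart in all 3. Cry1 was lower after the morning operation at 4 h and higher at 24 h. On the recovered reads, edgeR called Per2 (-3.56 ± 0.31, adjusted p = 0.01) and Cry1 (-1.70 ± 0.21, adjusted p = 0.016), where 0.435% of all 11715 genes were lower and 0.316% higher, and Ciart was short of the threshold (-2.70 ± 0.50, adjusted p = 0.052). Cry2 had 105, 205 and 163 reads against 420, 493 and 361, also apart and not called (-0.74 ± 0.14, adjusted p = 0.066), and Per3 had 4, 8 and 0 against 71, 59 and 30.

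Per1 had 215, 179 and 161 reads against 278, 272 and 322, lower in the morning and apart, but was not called (-0.25 ± 0.12, adjusted p = 0.43). Its level at noon 4 h after PHx was 7.27 ± 1.33 CPM against 9.72 ± 1.11 at midnight (SD, n = 3), while Per2 was at 0.909 ± 0.28 against 10.7 ± 2.55 (SD, n = 3). Bhlhe40 had 3584, 2273 and 1223 reads against 2453, 2274 and 2230, overlapping (0.12 ± 0.33, adjusted p = 0.93). The Cry1 call was lost without morning library 2 or 3 or night library 1 or 2 (adjusted p = 0.059, 0.051, 0.11 and 0.12), and the Ciart call without morning library 2 or 3 (0.11 and 0.094). Per2 stayed called without any 1 morning library, from which nothing is read, since the filter kept it through the night group. Without any 1 night library Per2 and Ciart no longer had 3 libraries at the required level and were not tested, so the calls came to 0, 0 and 1. 

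At 4 h after sham the table gives TPM, and no repressor of the 7 tested was called by limma, with 0 of 7 at an unadjusted p under 0.05. No gene of the table was called (0% of 11391, with 667 at an unadjusted p under 0.05). The libraries carrying the number 3 ran against their groups. Ciart was at 0.0484 and 0.1 TPM in the libraries labelled morning 1 and 2 and at 7.84 in the library labelled morning 3. In the libraries labelled night it was at 7.95, 4.03 and 1.14. Bhlhe40 was at 38.35, 34.59 and 56.43 in those labelled morning and at 93.69, 78.64 and 18.45 in those labelled night. Per2 was at 3.58, 1.45 and 12.7 TPM against 7.66, 13.07 and 2.44, and Per3 at 0.629, 0.141 and 2.99 against 3.28, 3.78 and 0.127. In Per1, Per2, Per3 and Ciart the library labelled morning 3 was the highest of its group, and the library labelled night 3 the lowest of its group. Without both libraries numbered 3, a choice made after the data had been seen, none of the 5 repressors still tested (Per1, Per2, Cry1, Cry2 and Bhlhe40) was called. Ciart, Per3 and Bhlhe41 were not tested there. Bhlhe40 then stood at -1.22 ± 0.17 (adjusted p = 0.051), Per2 at -1.72 ± 0.38 (adjusted p = 0.13) and Per1 at -0.77 ± 0.28 (adjusted p = 0.3), the last against 0.30 ± 0.59 with all 6 libraries.

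**Figure D5:**
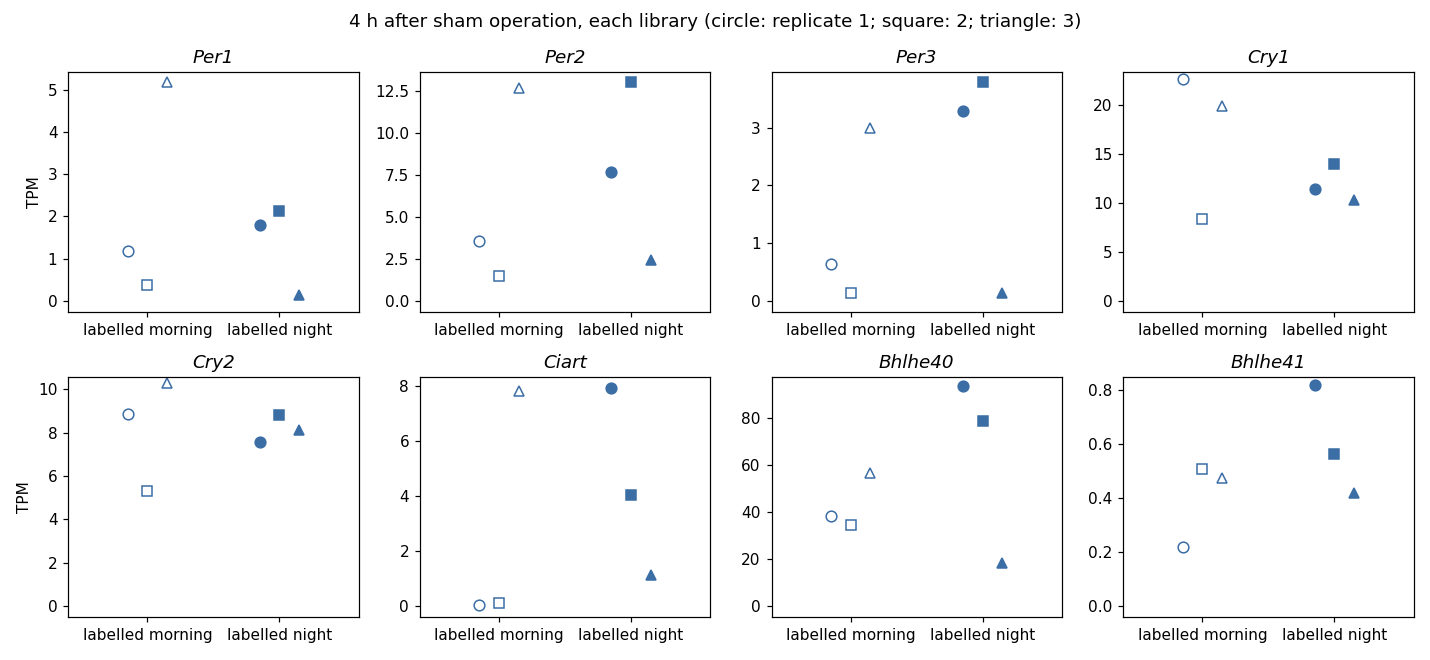
TPM of the 8 repressors 4 h after sham operation in each library, by its label, with circles, squares and triangles for libraries 1, 2 and 3. Ciart is at 7.84 TPM in the library labelled morning 3 and at 1.14 in the library labelled night 3, each away from its group.

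The rest of the clock gives the setting in which the repressors moved. In sham the activators peaked opposite to most of them, Arntl at 0.49 ± 0.70 h, Clock at 0.69 ± 0.85 h and Npas2 at 0.92 ± 0.72 h on the cycle counted from the operation, and all 3 were called rhythmic in sham and after PHx alike. At 4 h after PHx, when 37.6% of all genes fell and 9.32% rose, 1 of 3 activators fell (Clock, -1.38 ± 0.26, adjusted p = 3.3e-05), with a median over the list of -0.41 beside -0.32 for all genes. Of the second loop, Rora (-0.91 ± 0.25, adjusted p = 0.0025) and Nr1d2 (-0.86 ± 0.34, adjusted p = 0.04) fell as deposited and were not called after TMM scaling (-0.48 for each, adjusted p = 0.11 and 0.29). Nfil3, a D-box repressor, rose (1.16 ± 0.26, adjusted p = 0.0004), also after TMM scaling (1.64 ± 0.26). Of the 3 PAR bZIP activators of the D-box 2 fell, Hlf (-1.08 ± 0.27, adjusted p = 0.0012) and Tef (-1.54 ± 0.50, adjusted p = 0.011), the latter not called after TMM scaling (-1.20, adjusted p = 0.06). Among 7 kinases, ubiquitin ligases and a deubiquitinase that set the lifetime of PER and CRY proteins, Csnk1d (-1.05 ± 0.24, adjusted p = 0.00052) and Btrc (-0.54 ± 0.15, adjusted p = 0.0031) fell. After TMM scaling Btrc was not called (-0.15, adjusted p = 0.43), Csnk1d was at -0.59 (adjusted p = 0.048), and Csnk1e was called higher (0.64, adjusted p = 0.0032). Of 8 genes induced by glucocorticoids, hormones that also drive Per1, Cebpd and Tat rose (2.60 ± 0.36 and 1.86 ± 0.36, adjusted p = 3.8e-07 and 6.3e-05), Tsc22d3 fell (-1.49 ± 0.38, adjusted p = 0.0017) and 5 were not called. After TMM scaling Sgk1 was called higher too (1.12, adjusted p = 0.0034). For these genes too, operation and library ID series cannot be told apart at 4 h.

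At 20 h, when Per1, Per3 and Cry2 were called lower, 3 of the 7 enzymes of PER and CRY turnover rose, where 12.5% of all genes did, namely Fbxw11 (1.07 ± 0.33, adjusted p = 0.021), Csnk1d (0.76 ± 0.24, adjusted p = 0.024) and Csnk1e (0.55 ± 0.18, adjusted p = 0.031). At 28 h, beside the higher Per1 and Per2, 3 of 8 glucocorticoid-induced genes rose and 1 fell, where 14.9% of all genes rose and 5.59% fell, with Sgk1 at 1.18 ± 0.31 (adjusted p = 0.0062), Tat at 1.23 ± 0.36 (adjusted p = 0.013), Cebpd at 1.09 ± 0.36 (adjusted p = 0.029) and Klf9 at -0.73 ± 0.26 (adjusted p = 0.039). The list medians were 0.29 and 0.37, beside 0.13 for all genes at each time.

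After the night operation, where 11.9% of all genes rose and 11.3% fell, the activators moved opposite to the repressors that fell. At 24 h all 3 activators were higher after PHx than after sham, Clock by 1.56 ± 0.21 (adjusted p = 0.00012), Arntl by 2.83 ± 0.45 (adjusted p = 0.00045) and Npas2 by 1.69 ± 0.45 (adjusted p = 0.014), and all 3 PAR bZIP factors were lower, with Dbp at -3.58 ± 0.46 (adjusted p = 9.5e-05). The interaction with operation time was called for Clock (-1.71 ± 0.29, adjusted p = 0.015), Arntl (-3.21 ± 0.58, adjusted p = 0.021), Nfil3 (-1.71 ± 0.31, adjusted p = 0.021) and Dbp (4.25 ± 0.77, adjusted p = 0.02), where it was called for none of the repressors. Between morning and night sham at 24 h, Arntl differed by 4.73 ± 0.32 and Npas2 by 5.80 ± 0.34 (adjusted p = 2.6e-05 and 1.1e-05), and after PHx Arntl by 1.5 ± 0.40 (adjusted p = 0.22) and Npas2 by 3.94 ± 0.36 (adjusted p = 0.0022).

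For each repressor, the genes with the most similar sham profile were found by Pearson r over the 24 sham libraries, as a description. They were picked by their sham r, so a lower r after PHx is not read as a change. Noct, known for its daily rhythm in liver, was nearest to Per1 (r = 0.922) and to Per2 (0.913), and over the 24 PHx libraries r was 0.365 for Per1 and 0.776 for Per2. Usp2, which encodes a deubiquitinase, followed Noct and Mknk2 for Per1 (0.853, and 0.303 after PHx) and ranked next after Noct for Per2 (0.903, and 0.695). Per3 was nearest to A930033H14Rik (0.937, and 0.780 after PHx), and was itself the nearest gene to Cry2 (0.882, and 0.750) and the second nearest to Ciart (0.913, and 0.759) after Etnk2 (0.936, and 0.635). Cry1 was nearest to Lgalsl (0.875, and 0.729). Also among the nearest genes were Gm19522 for Cry1 (0.842, and -0.119 after PHx) and Upp2 for Cry2 (0.862, and -0.14). Bhlhe40 was nearest to Hcn3 (0.855), Hmgn1 (0.844) and Fbp1, a gluconeogenic enzyme (0.826), and over the PHx libraries these were at -0.050, 0.104 and -0.263. Bhlhe41 was nearest to Pdk2 (0.866, and 0.695).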

How the data were processed

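Liver polyA RNA of 60 mice was sequenced, and fastp 0.20.0, HISAT2 2.1.0 and the builds mm8 and mm9 are named in the submitters' processing notes, with no roles given. The time course was deposited by the authors as log2 values of a normalized expression value (offset 1, from the values), whose unit and depth no source used here gives. The 24 h tables hold read counts per gene as deposited, the 4 h sham table TPM as deposited, and the 4 h PHx table a signal as deposited, which the values show to be a read count times a constant of each gene. Whole reads were recovered from it for 11724 of 11840 genes (100% whole within 0.01, 24.9 to 30.6 M per library). It was scaled by TMM before the limma test, since the signal is not scaled to depth. 6 columns of samples without labels were not used.

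limma 3.58.1 (R 4.3.3, trend) was fitted to log2(value + 1) of all 48 time course libraries, with 24 h cosine curves for rhythms, and edgeR 4.0.16 quasi-likelihood tests to the counts. Genes needed a value of 1 in 3 libraries, or edgeR's filterByExpr for counts. All tests are two-sided, and p-values are adjusted over all genes tested. They rest on the spread between mice, 3 per group, pooled over the groups of a fit. For rhythms they rest on the scatter around the fitted curve. Alternatives were DESeq2 1.42.0, TMM or RLE scaling, no filter, a pseudocount of 0.1, the libraries of a comparison alone, the library ID series as a term, a replicate block and leaving out each library. The equal replicate numbers pair the samples in the 24 h sham table (r of deviations 0.308, 0.162 and 0.512), as judged from the data. Named genes are the 8 repressors, up to 4 of each clock list by smallest p, and the nearest genes by correlation. The members and lists were chosen with earlier results of these data known. No direction is given for the 38 of 149 repressor values that are smaller than their standard error and called in no setting. The scripts were tested on simulated data. One result of the clock lists is not reported here.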

Additional observations from a re-analysis of the deposited data

How the results depend on the processing

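Numbers here are counts of repressors called, beside the count reported. The share of all genes called in each setting is not given, so a changed count is no result about the repressors. TMM scaling gave 2 for 28 against 4 h after PHx (5) and 5 for the rhythm after PHx (3). A pseudocount of 0.1 gave 1 at 12 h (2), 0 at 16 h (1), 1 at 20 h (3) and 2 for sham 28 against 4 h (1). No filter gave 2 at 32 h (1) and 2 for sham 28 against 4 h (1). The libraries of the comparison alone gave 1 at 8 h (3), 4 at 12 h (2), 1 at 20 h (3), 1 at 28 h (2), 2 at 32 h (1), 0 for sham 28 against 4 h (1) and 3 for sham 32 against 8 h (5). The library ID series as a term gave 3 for the sham rhythm (7), 5 for the PHx rhythm (3) and 1 for its difference (0). DESeq2 gave 2 for the difference of the PHx response (0). The edgeR test of the 24 h counts, chosen after the data had been seen, gave 1 for PHx against sham at 24 h (0).

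With the replicate block, 20 of 21 counts stayed within 1.5 times and morning against night PHx at 24 h went from 5 to 0, with adjusted p from 0.0538 for Ciart to 0.0848 for Per3. Replicate numbers pair no libraries there, with deviations correlated at 0.052, 0.057 and -0.054.

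Leaving out 1 library gave 3 to 5 calls at 4 h, 2 to 3 at 8 h, 1 to 2 at 12 h, 0 to 1 at 16 h, 0 to 2 at 20 h, 0 to 1 at 24 h, 0 to 3 at 28 h and 0 to 2 at 32 h. It gave 0 to 1 for sham 28 against 4 h, 3 to 6 for sham 32 against 8 h, 3 to 6 for PHx 28 against 4 h, 3 to 4 for PHx 32 against 8 h, 2 to 5 for the PHx rhythm and 7 for the sham rhythm. For morning against night it gave 6 to 8 in sham and 0 to 5 after PHx at 24 h, 0 in sham and 0 to 3 after PHx at 4 h, and 0 to 1 for the difference of the response. In all, 35 of 62 called values stayed called whichever library was left out and 27 did not. Among the former, Per2 at 4 h after PHx, morning against night, could be tested only without 1 of the 3 morning libraries.

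Signs turned in 3 values. Ciart at 20 h ran from -1.28 to 0.061 between leaving out PHx 20 h library 1 and library 2. Cry1 at 28 h ran from -0.10 to 0.56, the lowest without sham 28 h library 1. Bhlhe40 for PHx 32 against 8 h was -0.0056 after TMM scaling. None of these 3 was called. The cause of these shifts was not tested. Depth is unknown in the time course. Bhlhe41, Ciart and Per3 lie near 0 at their troughs there, and the part of depth in this was not tested.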
